A study of Mus musculus with 122 samples.

Results

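CLC is a chimeric protein that joins the amino and carboxy ends of CTCF to the zinc fingers of CTCFL, and RNA-seq was used to ask which genes its induction changed in mouse embryonic stem cells whose own CTCF had been degraded. The 2 CLC ID libraries and the 2 CLC I libraries were taken by their labels, 4 of 38 RNA-seq libraries in a series of 122 samples. CTCF is a ubiquitous zinc finger protein that binds insulators and halts the cohesin ring, and so marks the ends of chromatin loops. CTCFL, also called BORIS, is its paralogue in the male germ line, with closely related zinc fingers and unrelated ends.

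The study compared CTCF, CTCFL and their chimeras by RNA-seq, ChIP-seq and Hi-C in lines derived as clones from E14Tg2a embryonic stem cells (129/Ola, XY). In every group both Ctcf alleles carried an auxin-inducible degron with eGFP, and the plant protein Tir1, which marks the degron for destruction once auxin is given, was made from a CAG promoter at Rosa26. The CLC line also carried a Flag-CLC-mRuby2 transgene at the Tigre locus that doxycycline switches on. Cells were grown without feeders in serum with LIF and with 2 inhibitors, CHIR99021, which blocks GSK3, and PD0325901, which blocks MEK. Untreated cells are called U, cells given 500 µM indole-3-acetic acid (IAA, auxin) I, cells given 1 µg/ml doxycycline (Dox) D, and cells given both ID. All 4 groups of the CLC line had 2 libraries of poly(A) RNA. The time point label of the treated libraries reads 24 h, whereas the treatment protocol gives 2 days, and this difference could not be settled from the sources used here. No label says that replicates came from separate cultures, so p-values measure the spread between these libraries, which may be technical.

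Values are gene counts divided by a size factor of the library, called normalized counts. Whole reads could be recovered from them for all 8 CLC libraries, and these came to 36822321 and 26349345 reads in U, 31086684 and 31800523 in I, 31679618 and 38182214 in D, and 39671659 and 32244858 in ID. The replicates were closest in U, where the median gene differed by 0.07 on the log2 scale, and farthest apart in I, where it differed by 0.27, against 0.14 in D and 0.19 in ID. On the first principal component, which held 52.4% of the variance, the I libraries lay at 50.8 and 64.6, the ID libraries at 34.7 and 27.8, and the U and D libraries between -47.9 and -40.4. By this component ID lay nearer to I than to U in both libraries. The second component held 18.9% and put the I libraries at 10.1 and 29.2, the ID libraries at -21 and -38.8, the U libraries at -20.8 and -23.4 and the D libraries at 37 and 27.7. On this component ID lay nearer to U than to I.

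The transgene was read first, as a check of the labels. Ctcfl had 41.4 and 42.7 normalized counts in U, 81.4 and 82.4 in I, 1791 and 1829 in D, and 3441 and 2544 in ID. Every Dox library was above every library without Dox, and Ctcfl rose by 5.16 ± 0.15 (log2 fold change ± SE, limma, adjusted p = 2.79e-06) in ID versus I. Ctcf had 8460.3 and 8319 in U, 7314 and 5586 in I, 10079.6 and 10162 in D, and 10258 and 11401 in ID. Both ID libraries were above both I libraries, with a log2 fold change of 0.76 ± 0.12 (adjusted p = 0.00586) that did not reach the threshold of 1. Since CLC holds parts of both genes, the values sum transgenic and endogenous reads, and IAA acts on the CTCF protein, so Ctcf RNA does not check the depletion. Without Dox, Ctcfl differed between I and U by 0.95 ± 0.15 (adjusted p = 0.00139), also under the threshold.

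The cells were read as embryonic stem cells in all 8 libraries. Over 7 markers (Pou5f1, Nanog, Sox2, Zfp42, Esrrb, Klf4 and Tfcp2l1) the summed normalized counts were 225712 and 227083 in U, 163316 and 154154 in I, 210166 and 215582 in D, and 191368 and 201022 in ID, with Nanog the most abundant over all 8 libraries together and Tfcp2l1 above it in both D libraries and in ID replicate 2. None of the 7 was called in ID versus I. Markers of other cell types were summed in the same way. For primitive endoderm, a lineage that stem cell cultures can form, the 6 markers summed to 1097 and 1108 in I and 1071 and 1061 in ID, mostly Gata4 and Dab2. Of these Sox17 had 30.4 and 27.5 in I and 76 and 62.9 in ID (1.23, limma, adjusted p = 0.024), which was not called. The other tested markers of that lineage changed by between -0.16 and 0.31. The 5 neural markers, led by Tubb3, summed to 2927 and 3866 in I and 6437 and 5207 in ID. Tubb3 itself had 2837 and 3763 in I and 6328 and 5089.6 in ID, a log2 fold change of 0.8 with an adjusted p of 0.00985, while the neural regulator Neurog2 was at 1.77 or less in all 4 libraries. The 5 trophoblast markers summed to 649 and 851 in I and 474 and 382 in ID, led by Krt7, and the 5 mesendoderm markers to 263 and 282 in I and 369 and 289 in ID, mostly Eomes and Gsc. Of the 6 fibroblast markers Col1a1 alone passed the filter on low values, with 331 and 334 in I and 167 and 155 in ID, and Dcn and Lum were at 0.91 or less in every library. Col1a1, a collagen chain, fell in ID versus I (-1.04 ± 0.18, adjusted p = 0.00761). That call was lost on leaving out any of the 4 libraries, with adjusted p-values between 0.0108 without I replicate 1 and 0.0561 without ID replicate 2. In bulk RNA, fewer cells of a type and less RNA per cell cannot be told apart, and the part of these cell types in the results below was not tested.

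Of 15337 genes tested, 177 rose (1.15%) and 122 fell (0.795%) in CLC ID versus I, with an adjusted p below 0.01 and a change of over 2 times. For comparison, IAA alone raised 1027 genes (6.70%) and lowered 935 (6.10%) in I versus U, and Dox alone raised 54 (0.352%) and lowered 38 (0.248%) in D versus U. Set against I versus U, the 299 called genes were sorted into opposed genes, which IAA had moved the other way, new genes, which IAA had not moved past the thresholds, and extended genes, which IAA had moved in the same direction. There were 221 opposed genes, 139 that rose and 82 that fell, which is 73.9% of the calls. These were 14.9% of the genes that fell with IAA and 7.98% of those that rose. New genes numbered 78, of which 38 rose and 40 fell. Extended genes numbered 0 by limma, 1 by edgeR and 3 by DESeq2, and 27 genes with the sign of their IAA call had an unadjusted p under 0.05. The 2 comparisons share the I libraries, so that a deviation of these libraries alone gives opposite signs, and the classes are counts and not tests.

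These counts rested on single libraries more than on the choice of tool. Without I replicate 1, 473 genes rose, and 518 were opposed and 119 new. Without ID replicate 1, 66 rose and 35 fell, and without ID replicate 2, 46 rose and 13 fell. Without I replicate 2, 70 fell. Without U replicate 1 or 2, 103 or 102 genes were opposed and 40 or 42 new. With the replicate number as a block, 113 rose and 51 fell, and DESeq2 gave 224 that fell, 344 opposed and 136 new. With all 4 lines in 1 fit 324 fell, and with no filter on low values 69. With the 2 groups fitted alone 3 genes rose (Ctcfl, Egr1 and Mthfd1l) and 0 fell, so that all other calls rest on a spread pooled over the 8 libraries. The next smallest adjusted p in that fit among the named genes was 0.0114. Without the filter Col1a1, Usp17le, Dlk1, Dusp6, Nrarp, Notch4 and mt-Tw lost their calls (adjusted p between 0.0135 and 0.0268), as they did with the block, together with Taf7l (between 0.0118 and 0.0227). Of the 299 genes, 280 were called in the same direction by edgeR and 296 by DESeq2, 55 without ID replicate 2, and none in the other direction in any alternative.

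The opposed genes that rose had a median log2 fold change of 1.32 in ID versus I and of -1.92 in I versus U, and stood at a median of -0.57 in ID versus U. Of the 139, 36 were still called lower in ID than in U and none higher. The opposed genes that fell had medians of -1.34 in ID versus I, 1.74 in I versus U and 0.28 in ID versus U, and 10 of 82 were still called higher than in U. In D versus U, where Dox acted beside CTCF, the same sets had medians of -0.2 and 0.62. The new genes that rose had medians of 1.26 in ID versus I and -0.61 in I versus U, and those that fell -1.41 and 0.61. Thus the new genes too had gone the other way in I by their median, and 14 of 38 and 10 of 40 passed the adjusted p there without reaching the fold threshold. By their medians the new genes stood past U, at 0.65 and -0.83 in ID versus U, where 10 of 38 were called higher and 12 of 40 lower. The class thresholds largely set this, since new genes changed by over 1 in ID versus I and mostly by less in I versus U. The contrast with the opposed genes is therefore not read as a result.

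Egr1 gave the smallest p among the genes that rose other than Ctcfl. It encodes a zinc finger transcription factor of the immediate early class, switched on by growth factor and ERK signals. Egr1 had 236 and 231 normalized counts in U, 34 and 37.2 in I, 502 and 450.4 in D, and 428 and 468 in ID. It was low in both I libraries and at about 2 times U in every Dox library, and rose in ID versus I by 3.62 ± 0.14 (adjusted p = 1.78e-05) after its fall in I versus U (-2.68 ± 0.14). In D versus U it rose by 1.02 (adjusted p = 0.00772). The response to Dox was larger with IAA than without by 2.6 ± 0.2 (adjusted p = 0.000349).

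Other opposed genes with low p-values follow. Mthfd1l, a mitochondrial enzyme of folate metabolism, had 2559.5 and 2434 in U, 307 and 240.1 in I, and 1435 and 1479 in ID. The ID libraries lay between the I and U libraries, with a rise of 2.42 ± 0.12 over I (adjusted p = 7.58e-05). Mrps2, a protein of the small mitochondrial ribosomal subunit, had 6124 and 5933 in U, 1478 and 1406 in I, and 3886 and 4039 in ID (1.46 ± 0.08, adjusted p = 8.5e-05). Csnk2a2, a catalytic subunit of casein kinase 2, had 4174 and 4061 in U, 1023 and 949.7 in I, and 2419 and 2409 in ID (1.29 ± 0.08, adjusted p = 0.000148). In both genes ID stood between I and U without overlap. Ext2, a glycosyltransferase that extends heparan sulfate chains, had 1538 and 1483 in U, 349 and 402 in I, and 1198 and 1249 in ID (1.7 ± 0.1, adjusted p = 0.000136). Dennd4b, a member of the DENN family of exchange factors for Rab GTPases, had 528 and 566 in U, 82.3 and 62 in I, and 412 and 429 in ID (2.54 ± 0.16, adjusted p = 0.000136).

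In other genes the return was partial or complete. Tenm4, a teneurin of the cell surface, fell from 1809.9 and 1791 in U to 129 and 119.6 in I, and rose to 524 and 617 in ID (2.19 ± 0.13, adjusted p = 0.000114). Iqgap2, a scaffold protein of the cytoskeleton, went from 762 and 795 in U to 59.9 and 43.4 in I, and to 287 and 301 in ID (2.5 ± 0.16, adjusted p = 0.000165). Both stayed well under U in both ID libraries. Ntrk3, the receptor of neurotrophin-3, had 326 and 332 in U, 75.1 and 64.7 in I, and 405 and 364 in ID, so that both ID libraries exceeded both U libraries (2.44 ± 0.14 over I, adjusted p = 0.000114). Bcas3, a cytoskeletal protein of cell movement, had 1907 and 1886 in U, 708 and 711 in I, and 1856 and 1731 in ID (1.34 ± 0.09, adjusted p = 0.000165). Ttc5, a tetratricopeptide protein that binds the p300 coactivator, had 773 and 740.3 in U, 82.3 and 86.8 in I, and 649 and 495 in ID (2.73 ± 0.15, adjusted p = 8.5e-05). The ID libraries of Bcas3 and Ttc5 lay below those of U.

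**Figure D1:**
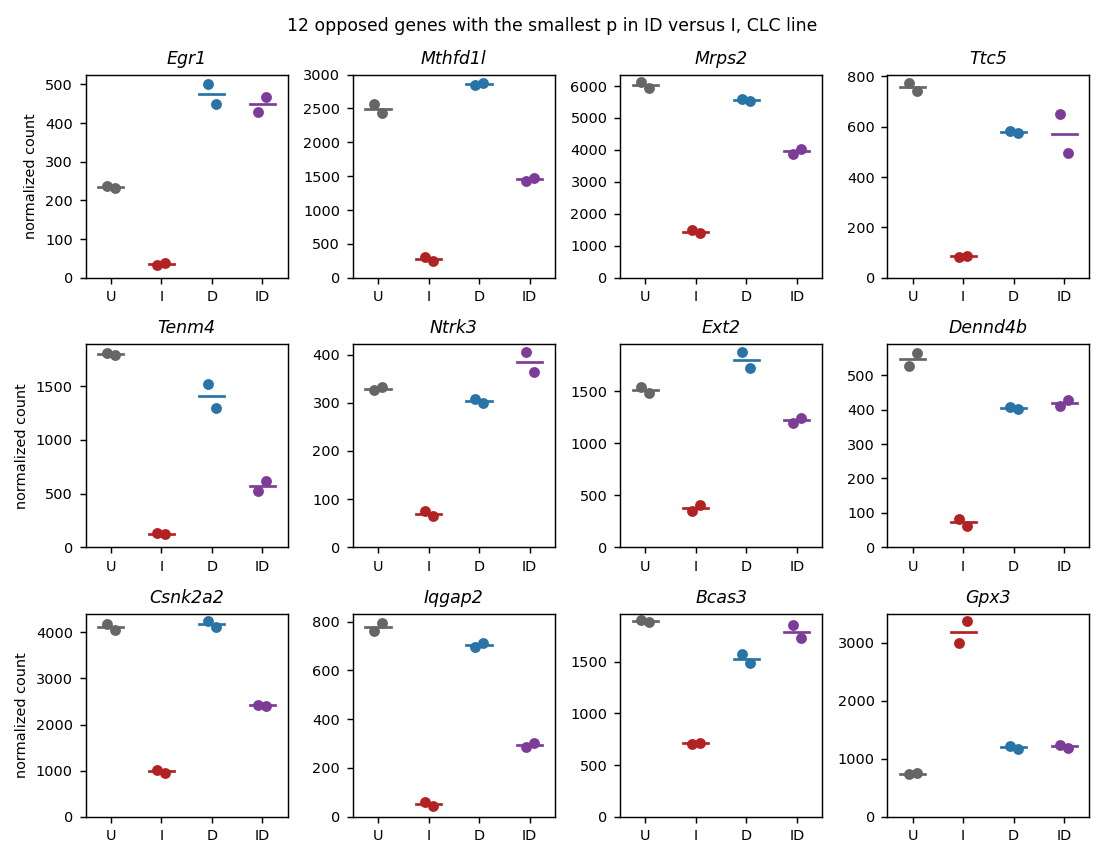
Normalized counts (vertical axes, from 0) of the 12 opposed genes with the smallest p in ID versus I, in the 2 libraries of each of the groups U, I, D and ID of the CLC line (horizontal axes). Points are libraries and lines their means. In 11 genes the I libraries are the lowest, and in Gpx3 they are the highest, at 3004 and 3375.

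Genes of sterol synthesis and uptake were read as a list of 24, all tested. In ID versus I limma called 1 that rose, not shown here, and none that fell, against 1.15% and 0.795% of all genes. By edgeR and by DESeq2 also 1 rose and none fell. The median of the list in ID versus I was 0.48 against 0.01 over all genes. At an unadjusted p under 0.05, 15 were higher and 0 lower, against 18.2% and 14.3% of all genes. Hmgcs1, an enzyme early in the sterol pathway, had 9219 and 9429 in U, 6119 and 5021 in I, and 8611 and 9412 in ID (0.7, adjusted p = 0.00461). Sqle, which makes squalene epoxide, had 4449.6 and 4343 in U, 3356 and 3328 in I, and 5458 and 5852 in ID (0.76, adjusted p = 0.00147). Both genes were higher in both ID than in both I libraries, under the fold threshold. None of the 24 was called in I versus U, where their median was -0.4.

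Gpx3 gave the smallest p among the genes that fell. Gpx3, a secreted glutathione peroxidase, had 733 and 758 in U, 3004 and 3375 in I, 1218 and 1178 in D, and 1241 and 1187 in ID. It fell in ID versus I (-1.39 ± 0.09, adjusted p = 0.000196), both ID libraries were below both I libraries, and the ranges of D and ID overlapped. Anxa8, an annexin, had 476 and 427 in U, 1952 and 2428 in I, and 773 and 777 in ID (-1.49 ± 0.12, adjusted p = 0.000484). Galnt6, an enzyme that starts O-linked glycans, had 535 and 549 in U, 2158 and 2113 in I, and 835 and 1016 in ID (-1.21 ± 0.12, adjusted p = 0.000902). In both the ID libraries lay above U and below I. Mmp2, a secreted metalloprotease, had 242 and 224 in U, 501 and 471 in I, and 169 and 152 in ID, below U in both libraries (-1.59 ± 0.13, adjusted p = 0.000469). Gpx6, another glutathione peroxidase, had 77.7 and 80.7 in U, 177 and 218 in I, and 49.6 and 51 in ID (-1.94 ± 0.19, adjusted p = 0.000972). Gpx6 lost its call without ID replicate 2 (adjusted p = 0.0101).

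The new genes with the smallest p among those that fell are given next. They stood below U, which follows from the class thresholds for genes that rose by less than 1 in I versus U. Arrdc4, an arrestin-domain protein induced by glucose, had 1385 and 1332 in U, 1856 and 1751 in I, 1666 and 1699 in D, and 789.9 and 810.3 in ID (-1.17 ± 0.09, adjusted p = 0.000312). Serpine2, a secreted serine protease inhibitor, had 991 and 966 in U, 1716 and 1980.1 in I, and 840.3 and 777 in ID (-1.19 ± 0.1, adjusted p = 0.000523). The ID libraries were the lowest of the line for both genes. Btbd18, a regulator of the piRNA genes of the testis, had 162 and 196 in U, 286 and 317 in I, and 99.3 and 88.4 in ID (-1.67 ± 0.16, adjusted p = 0.000883, and 0.0105 without ID replicate 2).

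Targets of p53, the tumour suppressor that arrests or kills stressed cells, fell where they were called. Of 33 tested, 5 fell and none rose in ID versus I, all of them opposed, against 0.795% and 1.15% of all genes, and their median was -0.29. In I versus U, 14 had risen and none had fallen, against 6.70% and 6.10% of all genes. By edgeR 5 fell and by DESeq2 4, and at an unadjusted p under 0.05, 18 were lower and 1 higher, against 14.3% and 18.2% of all genes. Perp, a membrane protein of p53-dependent apoptosis, had 489.6 and 482 in U, 1097 and 1158 in I, and 423 and 447 in ID (-1.37 ± 0.1, adjusted p = 0.000295). Tap1, a peptide transporter of antigen presentation, had 64.2 and 56.9 in U, 732 and 775 in I, 264 and 216 in D, and 203 and 180.5 in ID (-1.97 ± 0.16, adjusted p = 0.000469). Perp came to lie below U, and Tap1 below D but above U. Pmaip1, which encodes the apoptosis factor Noxa, had 432 and 410.5 in U, 1069.8 and 897 in I, and 297 and 340.0 in ID (-1.62 ± 0.16, adjusted p = 0.00113, and 0.0103 without ID replicate 1). Plk2, a polo-like kinase, had 1569 and 1662 in U, 6001 and 5779.9 in I, and 2705 and 2986 in ID (-1.05 ± 0.09, adjusted p = 0.000469), and without ID replicate 1 its fold change of -0.98 was under the threshold. The most used targets showed less: Cdkn1a, the p21 cell cycle inhibitor, had 11715 and 12325 in I and 10085 and 9596 in ID (-0.29, adjusted p = 0.0359), and Mdm2, which degrades p53, 11329.9 and 10381 in I and 8654 and 9132 in ID (-0.29, adjusted p = 0.0535).

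The 4 immediate early and stress lists given next held 1 or 2 calls each by limma, where 1.15% of all genes rose and 0.795% fell. Of 21 immediate early genes tested, Egr1 and Dusp6 rose and none fell (median 0.07), a larger share than of all genes, on 2 genes and with no test. Dusp6, a phosphatase that restrains ERK, had 643 and 663 in U, 94.8 and 60.2 in I, and 169 and 163 in ID (1.12 ± 0.2, adjusted p = 0.00821). It stayed far below U, and its call was lost without either ID library (adjusted p = 0.042 and 0.0473) and, by its fold of 0.8, without I replicate 2. Fos, by contrast, had 498 and 457 in I and 427 and 472 in ID (-0.09, adjusted p = 0.686). Of 30 genes of the ATF4 and unfolded protein responses 2 rose and none fell (median 0.12), again a larger share on 2 genes. At an unadjusted p under 0.05, 8 of the 30 were higher and 8 lower, against 18.2% and 14.3% of all genes. Slc7a3, a cationic amino acid transporter, had 2961 and 2901 in U, 659 and 703 in I, and 1411 in both ID libraries (1.05 ± 0.09, adjusted p = 0.00054). Chac1, an enzyme that breaks down glutathione, had 149 and 147 in U, 52.8 and 37.2 in I, and 272 and 214 in ID (2.42 ± 0.27, adjusted p = 0.00173, and 0.0151 or 0.014 without ID replicate 1 or 2). Both genes were higher in both ID than in both I libraries. Of 20 targets of AHR and NRF2, which answer to foreign compounds and oxidants, Cyp1a1 fell and none rose (median -0.02), and by DESeq2 3 fell. Cyp1a1, a cytochrome P450 enzyme, had 124 and 132 in U, 878 and 747 in I, and 293 and 288 in ID (-1.48 ± 0.14, adjusted p = 0.000844, and 0.0103 without ID replicate 2). Of 30 hypoxia and glycolysis genes P4ha2, a collagen prolyl hydroxylase, fell from 574 and 637 in I to 246 and 183 in ID (-1.51 ± 0.16, adjusted p = 0.00146, and 0.0108 without ID replicate 2) and none rose (median 0.13).

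The zinc fingers of CLC are those of a germline protein, so genes of meiosis and the germ line were read as a list. Of 31 tested, 3 fell and none rose (median -0.39), against 0.795% and 1.15% of all genes, and at an unadjusted p under 0.05, 19 were lower and 2 higher, against 14.3% and 18.2% of all genes. Tex101, a germ cell surface protein, had 87 and 77.1 in U, 199 and 218 in I, and 65.4 and 60.2 in ID (-1.71 ± 0.19, adjusted p = 0.00147, and 0.0101 or 0.0159 without ID replicate 1 or 2). Tdrd1, a tudor protein of the piRNA pathway, had 212 and 211 in U, 322 and 305 in I, and 139.9 and 120.3 in ID (-1.27 ± 0.15, adjusted p = 0.00191, and 0.0188 without ID replicate 2). Taf7l, a germ cell relative of a general transcription factor, had 196 and 195 in U, 232 and 205 in I, and 68.5 and 99.4 in ID (-1.39 ± 0.2, adjusted p = 0.00344, and 0.017 without ID replicate 1). All 3 were lower in both ID libraries than in any other library of the line. In the line of LCL, a chimera with the zinc fingers of CTCF, Tex101, Tdrd1 and Taf7l changed by -2.39, -2.45 and -1.79 in ID versus I. In the CTCFL line, whose protein has the zinc fingers of CLC, they changed by 1.86, 0.52 and 1.09. The part of the zinc fingers in these changes was not tested. Of 24 tested genes that the study names for CTCFL or the chimeras, chosen by the study on these samples, Egr1 rose and none fell (median -0.23). The testis genes among them were not called: Stra8, a regulator of entry into meiosis, had 4183 and 5329.8 in I and 3612 and 3229 in ID (-0.47, adjusted p = 0.032), and Prss50, a testis protease, 18.8 and 42.5 in I and 61.7 and 56.5 in ID (1.03, adjusted p = 0.0958).

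Developmental lists were read against the 1.15% of all genes that rose and the 0.795% that fell. Of 25 naive pluripotency genes none was called by limma, edgeR or DESeq2 in ID versus I, although 7 had fallen and 1 had risen in I versus U, against 6.10% and 6.70% of all genes. Their median was 0.23, and at an unadjusted p under 0.05, 14 were higher and 2 lower, against 18.2% and 14.3% of all genes. Nr0b1, an orphan nuclear receptor of naive stem cells, had 5047 and 5089 in U, 1149 and 1125 in I, and 2261 and 2160.2 in ID, a fold change of 0.96 (adjusted p = 0.000683) just under the threshold. Of 19 Notch pathway genes Notch4, a receptor, rose from 125 and 105 in I to 260.3 and 301 in ID (1.28 ± 0.23, adjusted p = 0.00924), and Nrarp, a feedback inhibitor, fell from 368 and 252 to 131 and 139 (-1.16 ± 0.21, adjusted p = 0.0085). The call of Notch4 was lost without ID replicate 1, ID replicate 2 or I replicate 2 (adjusted p = 0.0347, 0.0686 and 0.0244) and on TMM rescaling (0.0104), and that of Nrarp without either ID library (0.0448 and 0.0457) or I replicate 1 (0.0139). Of 30 imprinted genes, expressed from 1 parental allele, Dlk1 fell from 89.4 and 145 in I to 40.6 and 31 in ID (-1.66 ± 0.28, adjusted p = 0.00659) and none rose (median 0.02). The call of Dlk1, a transmembrane regulator of differentiation, was lost without ID replicate 1, ID replicate 2 or I replicate 2 (adjusted p = 0.0212, 0.0484 and 0.0198). Igf2, the growth factor whose locus holds a known CTCF insulator, had 402 and 319 in I and 437 and 396 in ID (0.22, adjusted p = 0.475).

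Of the 2-cell stage genes, which mark a rare totipotent-like state, 4 of 20 were tested. Usp17le, a deubiquitinase of a multigene family whose reads may be split between copies, had 2.53 and 9.49 in U, 68.9 and 65.6 in I, and 4.51 and 2.73 in ID (-3.91 ± 0.64, adjusted p = 0.00586), and its value is uncertain for that reason. It passed the filter on low values only through the I libraries, all others being at 9.49 or less, so that its place among the genes tested rested on the I libraries. Its call was lost without any 1 of the 4 libraries (adjusted p between 0.0122 without I replicate 1 and 0.0408 without ID replicate 2). Of 17 mitochondrial transcripts tested, mt-Tw, a transfer RNA that poly(A) selection captures poorly, fell from 75.1 and 93 in I to 29.3 and 23.7 in ID (-1.63 ± 0.3, adjusted p = 0.00886), and this call too was lost without any 1 of the 4 libraries (adjusted p between 0.0101 without I replicate 1 and 0.061 without ID replicate 2). DESeq2 called 3 of the 4 tested 2-cell stage genes as lower, and nothing is read here from the list as a whole. In the mitochondrial list 1 of 17 fell and none rose by limma, against 0.795% and 1.15% of all genes. At an unadjusted p under 0.05, 0 of the 17 were higher and 7 lower, against 18.2% and 14.3% of all genes. The median of the mitochondrial list was -0.44.

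In the other lists limma called none in ID versus I. Of 16 formative and neural genes, 7 were higher and 3 lower at an unadjusted p under 0.05, where 18.2% of all genes were higher and 14.3% lower, with 1 that rose by DESeq2 and 0 by edgeR. Of 15 mesendoderm and primitive endoderm genes 3 were higher and 0 lower, and of 27 Nodal and TGF-beta genes 2 and 0, with no call by either other tool. Of 10 trophoblast genes 2 were higher and 4 lower, and both other tools called 1 that fell. Of 17 cohesin genes 5 were higher and 1 lower, of 16 DNA methylation genes 5 and 2, of 30 cell cycle and replication genes 7 and 5, and of 15 heat shock chaperones 1 and 4, again with no call by edgeR or DESeq2. Cohesin itself is the complex that CTCF halts: Rad21, its kleisin subunit, had 17707 and 17762 in U, 12184 and 9666 in I, and 11449 and 13512 in ID, with the ranges of I and ID overlapping (0.2, adjusted p = 0.313). Of the clustered protocadherins, neuronal adhesion genes whose promoters hold CTCF sites, 7 of 57 were tested, 2 were higher and 0 lower at that p, and DESeq2 called 1 that rose. Of 21 tested Hox genes 1 was higher and 5 lower, of 87 ribosomal protein genes 1 and 3, and of 10 tested replication-dependent histone genes, whose RNA lacks a poly(A) tail, 1 and 0, with no call by edgeR or DESeq2. The medians of these 12 lists lay between -0.4 and 0.33.

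A list of genes moved by depletion in other lines shares no library with the CLC comparison. In the CTCF line and the CTCFL line, without Dox, 688 genes fell and 336 rose with IAA in both. In the CTCF line Ctcf had 4712 and 4691 in U, 4622, 4371 and 4231 in I, 3845, 3849.9 and 3549.7 in D, and 3909.8, 4137 and 4142 in ID. Its RNA was thus not higher with Dox, and whether the transgene of that line was off in I cannot be told from these values. Of the genes that fell there, 642 were tested in CLC, and 104 rose (16.2%, against 1.15% of all genes) and 0 fell in ID versus I. Their median log2 fold change was 0.75, with 89.6% above 0, whereas over all genes the median was 0.01 with 51% above 0. Of the genes that rose there, 281 were tested, and 23 fell (8.19%, against 0.795%) and 0 rose, with a median of -0.45 and 78.6% below 0, against 49% of all genes. By edgeR 92 and 27 were called in these directions and 0 in the other, where 160 of all 15337 genes rose and 140 fell. By DESeq2 these were 138, 43 and 0, where 259 of all genes rose and 224 fell. At an unadjusted p under 0.05, 438 of the 642 were higher and 11 lower, and 107 of the 281 lower and 11 higher. Over all genes 18.2% were higher and 14.3% lower at that p.

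Against the mean of U, the genes that fell elsewhere stood at medians of -1.56 and -1.78 in the I libraries, -0.98 and -0.86 in the ID libraries and -0.01 and 0 in D. Those that rose elsewhere stood at 1.59 and 1.73 in I, 1.23 and 1.17 in ID and 0.26 and 0.25 in D. In both sets both ID libraries lay between I and U. The counts depended on single libraries: without I replicate 1, 192 rose, without ID replicate 1, 47 rose and 4 fell, without ID replicate 2, 32 and 2, and without I replicate 2, 10 fell. The medians moved less, from 0.63 to 0.84 and from -0.51 to -0.39.

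**Figure D2:**
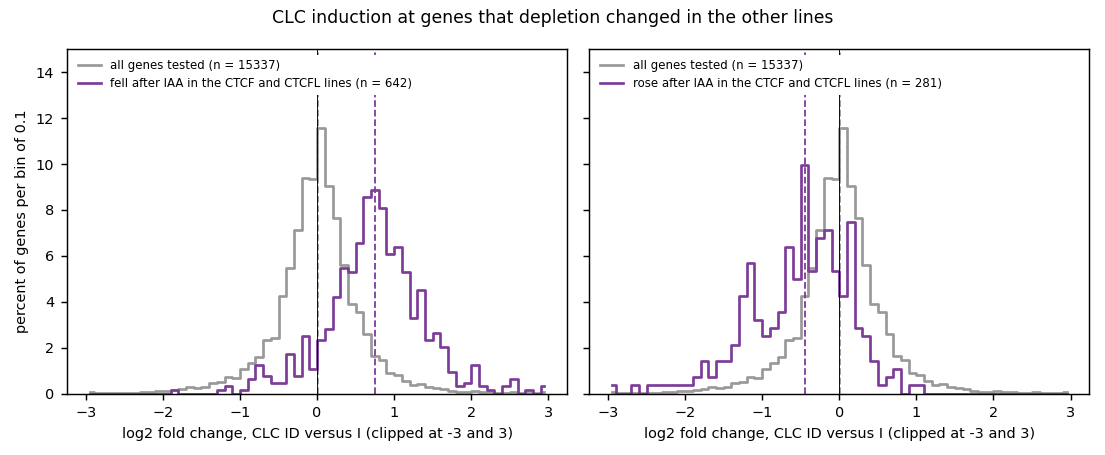
Distribution of the log2 fold change of CLC ID versus I (horizontal axes, limma, values beyond -3 or 3 placed in the end bins) as a percent of genes per bin (vertical axis), for all 15337 genes tested (grey) and for genes that fell (left, 642) or rose (right, 281) with IAA in both the CTCF and the CTCFL line (purple). Dashed lines are medians, at 0.75 and -0.45 for the 2 lists and 0.01 for all genes.

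Whether Dox acted differently with IAA than without was tested as the difference of ID versus I and D versus U in the same fit. The difference was positive and called for 497 genes (3.24%) and negative and called for 435 (2.84%). Among the smallest p-values were those of Lrrn2, Tap1, Hap1, Gpx3 and Ttc5. Lrrn2, a leucine-rich repeat protein of neurons, had 674 and 648 in U, 237 and 206 in I, 159 and 196 in D, and 771 and 738 in ID. Thus either agent alone went with low values of Lrrn2 and both together with values above U, and the difference was 3.67 ± 0.2 (adjusted p = 0.000208). Hap1, a partner of huntingtin, followed a like course, with 5292 and 5208 in U, 4202 and 4279 in I, 2648 and 2427 in D, and 7839.7 and 7803 in ID (1.93 ± 0.11, adjusted p = 0.000208), although its 0.88 in ID versus I was under the threshold. For Tap1 and Gpx3, which Dox alone left higher than U and Dox with IAA lower than I, the differences were -3.94 ± 0.23 and -2.07 ± 0.13, and for Ttc5 3.11 ± 0.21. These counts fell to 73 and 54 without U replicate 2 and to 94 and 72 without U replicate 1, and without D replicate 1 or 2 they were 134 and 82 or 138 and 91. Without I replicate 1 they were 1039 and 661, without ID replicate 2, 202 and 160, and with the replicate block 285 and 228.

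LCL is the reciprocal chimera, with the zinc fingers of CTCF between the ends of CTCFL. The response to Dox under IAA was higher in the CLC line than in the LCL line for 596 genes (3.88% of 15344) and lower for 405 (2.64%), each line set against its own I libraries. A2m, a secreted protease inhibitor, had 1512 and 1401 in CLC I and 2638 and 2548 in CLC ID, but 1611 and 1561 in LCL I and 634 and 629.9 in LCL ID (difference 2.16 ± 0.13, adjusted p = 4.51e-08). Atp2a3, a calcium pump of the endoplasmic reticulum, went from 2643 and 2536 to 4393 and 4079 in CLC and from 3229 and 3442 to 987 and 1203 in LCL (2.32 ± 0.14). Both genes thus had opposite directions in the 2 lines. Atp1b2, a sodium pump subunit, had 1703 and 1697 in CLC I and 1515 and 1848 in CLC ID, overlapping, and 1769 and 1839 in LCL I against 355 and 373 in LCL ID (2.28 ± 0.13). Perp went from 1097 and 1158 to 423 and 447 in CLC and from 508 and 428 to 1191 and 1226 in LCL (-2.74 ± 0.17, adjusted p = 9.02e-08). Comtd1, a predicted methyltransferase, went from 75.1 and 78.8 to 41.4 and 41.9 in CLC and from 130.4 and 146 to 707 and 757 in LCL (-3.27 ± 0.2), and Cd24a, a cell surface glycoprotein, from 1305 and 1281 to 1039.7 and 1005 in CLC and from 747 and 825 to 3199 and 2775 in LCL (-2.26 ± 0.15, adjusted p = 9.09e-08). Without I replicate 1 of CLC, 1016 genes were higher, and without ID replicate 2 of CLC, 392 were higher and 252 lower. Without ID replicate 1 of LCL, 263 were lower.

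CTCFL has the same zinc fingers as CLC and its own ends. Against the CTCFL line, with 3 I and 2 ID libraries, the response was higher in CLC for 1184 genes (7.16% of 16532) and lower for 897 (5.43%), and no alternative moved these counts by over 1.5 times. The column names of the CLC and LCL libraries carry the mark 2i and another naming scheme than those of CTCF and CTCFL, although the growth protocol is the same for all, so that a difference of library set or culture cannot be told apart from that of the proteins. Cgref1, a secreted calcium-binding growth regulator, had 102 and 130.2 in CLC I and 35.4 and 39.2 in CLC ID, but went from 139.9, 179.7 and 149 in CTCFL I to 1364 and 1560.0 in CTCFL ID (difference -4.83 ± 0.24, adjusted p = 1.24e-10). Its own fall in CLC (-1.6) lost its call without ID replicate 1 or 2 (adjusted p = 0.0161 and 0.0188). S100a1, a calcium sensor, had 259 and 344 in CLC I and 217 and 191 in CLC ID, against 147, 177 and 162 in CTCFL I and 1881 and 1979 in CTCFL ID (-4.12 ± 0.21, adjusted p = 1.42e-10). Cgref1 and S100a1 thus rose with CTCFL and were lower in both ID than in both I libraries with CLC.

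Txnip and Arrdc4 belong to the same arrestin family and both respond to glucose. Txnip, an inhibitor of thioredoxin, went from 5490.1 and 5052 to 2578 and 2692 in CLC and from 5209, 5024 and 4828 to 10843 and 10366 in CTCFL (-2.08 ± 0.1, adjusted p = 1.24e-10). Arrdc4 went from 1856 and 1751 to 789.9 and 810.3 in CLC and from 2792, 2592 and 2749.5 to 5335 and 4994 in CTCFL (-2.1 ± 0.11, adjusted p = 2.09e-10). Egr1, which rose in CLC, had 309.6, 307 and 297 in CTCFL I and 219 and 255 in CTCFL ID (3.98 ± 0.21, adjusted p = 2.09e-10). The I libraries of the CTCFL line were themselves above those of CLC for Egr1, so the lines differed before Dox as well.

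Binding of the induced protein was read from FLAG ChIP-seq, in which the antibody recovers the transgenic protein. The authors listed 33543 and 25137 peaks for the replicates of CLC ID and 10284 and 16008 for CLC D, and merged regions with a peak in both replicates gave 17876 and 7599 sites. A promoter site had its middle within 3000 bp of any annotated transcript start of the gene, inner starts included. Such a start was known for 14994 of the tested genes, with 75120 start positions among them. CLC ID sites lay at the promoters of 27.1% of all genes tested, 44.3% of the genes that rose (78 of 176) and 29.8% of those that fell (36 of 121). Among opposed genes the shares were 47.1% of those that rose and 25.9% of those that fell, and among new genes 34.2% and 37.5%. CLC D sites lay at 9.72% of all promoters, 27.3% of those that rose and 9.09% of those that fell. Genes that rose thus had sites more often than genes at large, by share and with no test, and genes that fell did so at about the level of all genes. The classes differed in level, with median U values of 743 for opposed genes that rose and 82.9 for those that fell. For new genes these were 218 and 135. The part of expression level and of the number of annotated starts in these shares was not tested. Within 1000 bp CLC ID sites lay at 34.7% of genes that rose, 14.9% of those that fell and 17.9% of all genes, and CLC D sites at 20.5%, 3.31% and 5.52%. The higher share of genes that rose came from the opposed genes for CLC ID in that window, since new genes that rose had 15.8%. CLC D sites from replicate 2 alone lay at 19% of the genes that fell and 15.3% of all genes.

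Shares for other sets were chosen after the data were seen. Genes that fell with IAA and were not opposed had a CLC ID site at 31.7% of promoters, and genes that rose with IAA and were not opposed at 33.7%, above the 25.9% of opposed genes that fell. Sites of the transgenic CTCF in ID lay at 30.7% of all promoters, 45.5% of the CLC genes that rose and 35.5% of those that fell, and sites of CTCFL in ID at 40.9% of all promoters, 58.5% of those that rose and 52 of 121 that fell. The genes that rose therefore had higher shares than all genes for the 3 proteins alike. RAD21, the cohesin subunit, gave 155 regions found in both replicates of CLC ID, from 2470 and 348 peaks, and these lay at 0.133% of all promoters and at none of the genes called. With so few regions common to both replicates, little can be read from that 0, and RAD21 peaks of replicate 1 alone lay at 4.13% of the genes that fell (5 of 121), 1.14% of those that rose and 1.21% of all genes.

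**Figure D3:**
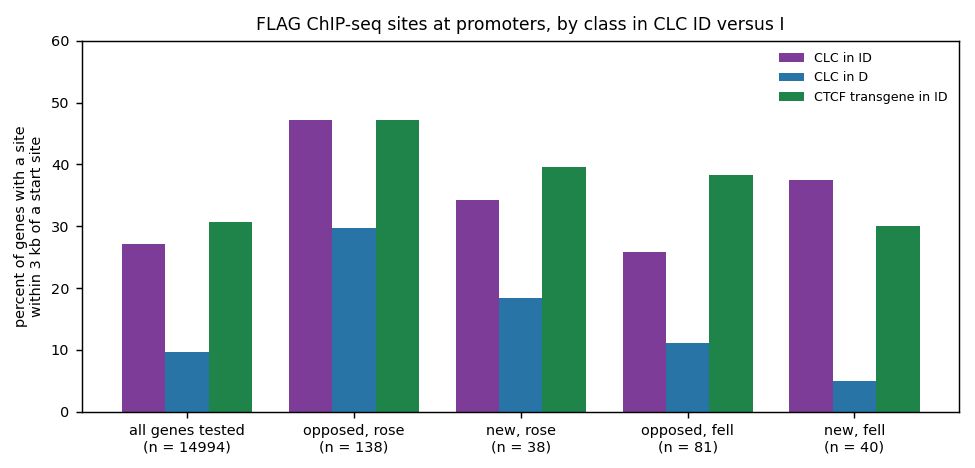
Percent of genes with a FLAG ChIP-seq site within 3 kb of an annotated start (vertical axis) for all genes tested and for the classes of CLC ID versus I (horizontal axis), with n the genes that have an annotated start. Bars are CLC sites in ID, CLC sites in D and sites of the transgenic CTCF in ID, each found in both replicates, and opposed genes that rose have the highest share of CLC ID sites, 47.1%.

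All 12 of the genes that rose with the smallest p had a CLC ID site at a promoter, and of the 12 that fell Arrdc4, Tap1 and Galnt6 had one. The share was 27.1% over all genes tested and 44.3% over all genes that rose. Each of the 12 that rose also had a CTCFL ID site, and all but Ctcfl a site of the transgenic CTCF in ID. The site at Csnk2a2 (chr8:95487848-95489959 of GRCm38) had a -log10 q of 63.1 and 101.0 in the replicates, that at Iqgap2 (chr13:95891036-95892857) 54.7 and 95.0, and that at Dennd4b (chr3:90264253-90266231) 57.8 and 75.9. The middles of these sites lay within 76 bp of annotated starts. Sites at genes that rose ranged down to 6.81 and 6.82 at Tenm4 (chr7:96209660-96210067). Those at the genes that fell were at 3.94 and 3.71 for Arrdc4 (chr7:68749292-68749672), 5.17 and 4.69 for Tap1 (chr17:34194294-34194780) and 15.7 and 8.5 for Galnt6 (chr15:100718341-100718874). The site at Ntrk3 (chr7:78568784-78569671, 12.4 and 15.2) had its middle 2664 bp from the nearest annotated start, near the edge of the window. It lay well inside the gene, which spans chr7:78175959-78738012 on the minus strand and so begins at the upper end. The sites at Tenm4, Tap1 and Galnt6 also lay inside their genes, within 3000 bp of inner annotated starts.

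The letters AGNNGGCNC, a core shared by the known motifs of CTCF and CTCFL and chosen after the data were seen, were searched on both strands within 50 bp of the summits. They occurred in 23.2% of the 17876 CLC ID sites, in 5.95% of windows of the same length 1000 bp away, and in 6 of 18 sites at the promoters of the named genes with the smallest p-values. The 6 sites held the 7 matches below, which are shown because they lie under CLC peaks at genes called higher in ID than in I. For Ctcfl the reads of the transgene cannot be told apart from those of the gene itself. Capitals mark the match, and a match is a description and not a shown binding event. The sequences were read from GRCm38, 5′ to 3′ on the strand of the match, at chr2:173119696-173119724 (+) and chr2:173119755-173119783 (+) for Ctcfl, chr10:3973073-3973101 (-) for Mthfd1l, chr2:28468032-28468060 (+) for Mrps2, chr2:93822581-93822609 (-) for Ext2, chr3:90265017-90265045 (-) for Dennd4b and chr11:85823373-85823401 (-) for Bcas3. The last lies in an intron of Bcas3 near an inner start, and the others lie upstream of the gene, 20 bp from the start in Mrps2 and 244 bp in Ctcfl at the nearest and farthest.
Ctcfl: tggaatcctgAGGGGGCGCtcgagttttc
Ctcfl, farther from the start: cggagtcctgAGGGGGCGCtggagtcctg
Mthfd1l: tgaggcccctAGGGGGCACtgtaccaagt
Mrps2: cgctcagaggAGGAGGCGCtctgccgggc
Ext2: cctgtccagcAGGGGGCGCggcgctaccg
Dennd4b: cactgaccccAGATGGCCCcgaagtcaga
Bcas3: tcctagcactAGGGGGCGCtgacagcagg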

How the data were processed

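RNA-seq reads were aligned by the authors with STAR to GRCm38/mm10. The deposited signal table gives, for 52459 genes and with 2 decimals, read counts scaled by the authors to a size factor of each library. The counting program and its use of strand are not given in the sources used here. Whole reads were recovered in 36 of 38 libraries (100.0% of values of up to 500 reads within 0.1 of a whole number in each), not in replicate 2 of CTCFL I and of CTCFL ID, which entered no test on reads.

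Values were tested as log2(value + 1) with limma 3.58.1 (trend) in R 4.3.3, in 1 fit of the 8 CLC libraries, or of both lines for a comparison between lines, for genes with a mean of 10 or more. Fold changes on this scale understate the change of low genes. A call needed a p below 0.01 after Benjamini-Hochberg correction and an absolute log2 fold change over 1. On recovered reads, edgeR 4.0.16 (quasi-likelihood) called 160 and 140 genes that rose and fell in ID versus I and DESeq2 1.42.0 called 259 and 224. Other alternatives were a pseudocount of 5, no filter or a mean of 50, TMM rescaling, the 2 groups alone, all 4 lines and the replicate block. Single libraries were also left out in turn. The D libraries, which share in the pooled spread, were left out only for the difference with and without IAA. In comparisons between lines, only I and ID libraries were left out. The functions were tested on simulated data.

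ChIP-seq peaks were called by the authors per replicate with MACS. The deposited -log10 q values and the fold enrichment that the authors list over local background were used as given. How deeply the ChIP libraries were sequenced is not known here. Starts came from GENCODE vM21, sequences from RefSeq's GRCm38, read with pysam 0.24.0 in Python 3.11.15.

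Named genes are Ctcf, Ctcfl, the 12 that rose, the 12 that fell and the 12 opposed genes with the smallest p in ID versus I, called genes of each list (the 4 with the smallest p where more were called) and the 6 with the smallest p of each interaction, without predicted genes and pseudogenes; 1 gene that met this rule is not shown. Other list members given with values were chosen after these were seen. Members and lists were chosen with earlier results of these data known.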

Additional observations from a re-analysis of the deposited data

Results flagged for a closer look

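The response to Dox differed between conditions or lines, by an interaction test in limma, for the genes below, which were among those with the smallest p-values. With IAA minus without IAA in the CLC line, the log2 difference was 3.67 for Lrrn2, 1.93 for Hap1 and 3.11 for Ttc5, and -3.94 for Tap1 and -2.07 for Gpx3. Under IAA, CLC minus LCL, it was 2.16 for A2m, 2.28 for Atp1b2 and 2.32 for Atp2a3, and -3.27 for Comtd1, -2.74 for Perp and -2.26 for Cd24a. Under IAA, CLC minus CTCFL, it was 3.98 for Egr1, and -4.83 for Cgref1, -2.08 for Txnip, -4.12 for S100a1 and -2.1 for Arrdc4. Each of these 16 differences kept its sign and its call in every alternative run for it. The genes were chosen by the smallest p in fits of the same libraries, so this outcome is not separate support. The lines are separate clones, so the transgene and the clone cannot be told apart in the comparisons between lines. The comparison with CTCFL also crosses 2 naming schemes of the libraries, and a difference of library set or culture was not tested.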

How the results depend on the processing

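In CLC ID versus I, the count that rose was 3 with the 2 groups alone, and the count that fell 0 there, 69 without a filter, 324 with all 4 lines in 1 fit and 224 by DESeq2. The 2 groups alone leave 2 residual degrees of freedom. Leaving out 1 library gave 46 to 473 that rose and 13 to 165 that fell. Opposed genes numbered 2 with the 2 groups alone, 408 with all lines, 344 by DESeq2 and 46 to 518 with a library left out, new genes 1, 164, 136 and 13 to 119, and extended genes 4 with all lines, 1 by edgeR, 3 by DESeq2 and 0 to 1 with a library left out. In I versus U, leaving out a library gave 615 to 1033 that rose and 599 to 1358 that fell.

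The replicate numbers pair no cultures that the labels name, and the replicate differences of ID and I correlated at -0.25. With the replicate number as a block, 113 rose and 51 fell, 126 were opposed and 38 new, and the difference with and without IAA was called for 285 and 228. With the numbers of ID crossed, chosen after seeing the data, 188 rose and 116 fell.

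With a library left out, the difference with and without IAA was called for 73 to 1039 genes upward and 54 to 661 downward, CLC against LCL for 392 to 1016 and 252 to 594, and of the genes moved by depletion in the other lines 32 to 192 rose and 2 to 25 fell. A promoter window of 1 kb gave CLC ID sites at 34.7% and 14.9% and CLC D sites at 20.5% and 3.31% of genes that rose and fell, against 17.9% and 5.52% of all genes. From 1 replicate, CLC D sites lay at 9.92% to 19% and RAD21 regions at 0 to 4.13% of genes that fell. The cause was not tested, beyond fewer libraries or genes in the fit.

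Among single genes, the log2 fold of Atp1b2 in ID versus I ran from -0.17 without ID replicate 2 to 0.12 without ID replicate 1. In I versus U, Cgref1 ran from -0.1 without I replicate 2 to 0.25 without I replicate 1 (-0.04 without U replicate 2), Txnip from -0.04 without I replicate 1 to 0.08 without I replicate 2, and S100a1 from -0.18 without I replicate 2 to 0.23 without I replicate 1 (-0.02 without U replicate 1), none of them called. Of the other checks of named genes in ID versus I, 551 kept their sign and side of the threshold, 92 lost the call and 4 gained it (Txnip). With a lone library in a group, it is assumed to vary like the others.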
